A study of Homo sapiens with 10 samples.

Results

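The zinc finger genes of chromosome 19 that are named *ZNF* with a number were followed through RNA-Seq of EA.hy926 clones. The table listed 263 such symbols on chromosome 19, with the antisense symbols left aside, and 134 of them (51.0%) had at least 1 cpm in at least 2 of the 10 libraries. Here cpm is the FPKM multiplied by the transcript length in kilobases, and FPKM is the number of reads scaled to transcript length and library size. For each symbol the transcript with the highest mean FPKM was used. Of all 27945 listed symbols, 47.8% passed the same filter, and these 13371 genes were tested together.

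EA.hy926 is an established human endothelial line, made by fusing umbilical vein endothelial cells with the lung carcinoma line A549. The study deleted by CRISPR/Cas9 the promoters of a pair of long noncoding RNAs, *VEGFA-LNC* and *VEGFC-LNC*, and grew single-cell clones. *VEGFA-LNC* starts inside an intron of the growth factor gene *VEGFA* and is antisense to it, whereas *VEGFC-LNC* lies upstream of the growth factor gene *VEGFC*. In the labels the genotypes are VEGFA_lincRNA knock-out (3 clones), VEGFC_lincRNA knock-out (3 clones) and control (2 libraries for each deletion). Deletion clones were homozygous, and the controls were cells given only the gRNAs, with Cas9 left out, and put through clonal selection as well, so that no untreated cells were among the libraries.

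Most zinc finger proteins encoded on chromosome 19 carry a row of C2H2 fingers, each of which holds a zinc ion and touches a few bases of DNA, and many begin with a KRAB domain. The KRAB domain binds the corepressor TRIM28 (KAP1), which brings in the histone H3K9 methyltransferase SETDB1 and the heterochromatin proteins of the HP1 family, and much of what this machinery silences is transposable elements. The genes arose by tandem duplication and lie in clusters, and the *ZNF* clusters themselves are known to carry H3K9 methylation. Since the members are similar in sequence, reads from their exons can fit more than 1 gene, and although the study's methods set a limit on the number of places to which a read could align, how reads with several matches were counted is not given in the sources used here.

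The libraries held between 6743970 and 24197539 reads, as recovered from the whole steps of the FPKM values. All 14 endothelial markers passed the filter, although *KDR* stayed at or below 1.39 FPKM. Of 10 markers of A549, *KRT8* and *KRT18* reached 95.2 FPKM or more in every library, *AKR1C1* and *AKR1B10* passed at low levels, 6 did not pass and *NKX2-1* was at 0 throughout. None of 4 leukocyte markers passed. Of 6 fibroblast and mural markers 4 passed, with *ACTA2* between 0.659 and 59.8 FPKM. The others that passed stayed low, with at most 0.332 FPKM for *COL1A1*, 0.245 for *PDGFRB* and 0.357 for *PDGFRA*. No row of the table was matched to either deleted RNA, so the deletions were not checked on their own transcripts. The 2 controls of each set were close. Between them the chi-square per degree of freedom over the *ZNF* genes was 1.23 for the *VEGFA-LNC* set and 0.798 for the *VEGFC-LNC* set, which is within or near sampling noise, whereas pairs of clones gave 2.41 to 11.3. Over all tested genes the control pairs gave 3.75 and 1.53, and they were kept as 2 samples. Nothing in the labels says that they came from separate cultures, so the p-values measure the spread between these libraries, which may be technical.

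As a group the *ZNF* genes were expressed at low levels. Their median over the means of the 10 libraries was 2.09 FPKM, against 7.41 FPKM for all tested genes, and 94 of the 134 lay between 1 and 10 FPKM, 34 below 1 and 6 at 10 or above. The highest was *ZNF146*, which encodes a protein made almost wholly of fingers and without a KRAB domain. Its 2 *VEGFA-LNC* controls had 30.1 and 27.8 FPKM, the 3 clones 34.6, 22.3 and 24.9, the 2 *VEGFC-LNC* controls 30.3 and 28.7, and their 3 clones 24.2, 24.9 and 22.7. It lay above all other members by mean, and in neither deletion did it pass the test (FDR by limma 0.783 and 0.372). Next came *ZNF121* (mean 13.1 FPKM), *ZNF175* (12.7), *ZNF581* (12.7), *ZNF358* (11.3), *ZNF574* (10.6), *ZNF460* (9.66) and *ZNF317* (8.98). *ZNF175*, also known as OTK18, is a repressor of HIV-1 in macrophages. The lowest members were *ZNF493* (0.107 FPKM), *ZNF566* (0.193) and *ZNF331* (0.236), the last of which is an imprinted gene. Translation of the coding sequences of 128 members gave between 1 and 23 C2H2 fingers with a median of 12, and 119 had at least 5. *ZNF814* had 23 and *ZNF428* had 1.

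At the edge of the filter, *ZNF404*, *ZNF812P* and *ZNF497* were just inside, with 1.08, 1.21 and 1.27 cpm in their second-highest library. Just outside were *ZNF132* with 0.920 cpm, *ZNF43* with 0.870 and *ZNF837* with 0.863. Most of the 129 symbols that did not pass were far from it. Of these, 43 had no read in any library, and their median over the mean values was 0.0023 FPKM.

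Whether a gene passed differed from cluster to cluster. Loci less than 500 kb apart were joined, which gave 20 clusters and single loci, of which 9 held at least 5 passed genes and 118 of the 134. In the cluster from *ZNF575* to *ZNF180* (chr19:44037340-45004575, hg19) 21 of 23 genes passed. In the cluster from *ZNF264* to *ZNF446* near the end of the long arm (chr19:57702868-59000900) it was 34 of 44, and in that from *ZNF414* to *ZNF846* (chr19:8575462-9896859) 12 of 16. These clusters together had 67 of 83. By contrast, 4 clusters had 35 of 138. They were *ZNF653* to *ZNF791* (chr19:11594242-12740676) with 9 of 28, *ZNF101* to *ZNF254* (chr19:19778962-24312769) with 8 of 39, *ZNF565* to *ZNF573* (chr19:36672962-38270230) with 6 of 26, and *ZNF175* to *ZNF331* (chr19:52074490-54083523) with 12 of 45. In these low clusters the genes that did not pass were near 0, with medians over mean values between 0.00135 and 0.0066 FPKM, and 35 genes without any read.

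CpG content was compared between the promoters of genes that passed and of genes that did not. In the 250 bases before the listed start (hg19), passed genes had a median of 14.5 CpG dinucleotides (quartiles 11 and 20) and the others 13 (quartiles 8 and 18), and 82.1% and 71.3% had at least 10. All tested genes had a median of 18, with 75.7% at 10 or more. The cluster from *ZNF101* to *ZNF254* stood at the low end, with a median of 6.5 CpGs in the 8 genes that passed and 8 in the 31 that did not. In the cluster from *ZNF565* to *ZNF573* both had a median of 18.

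Wide ranges over the 10 libraries made up a smaller share of the *ZNF* genes than of all tested genes, on a scale that compresses low values. The range of log2(FPKM + 0.1) from the lowest to the highest library was at least 1 in 58 members (43.3%), against 54.3% of all tested genes, and at least 2 in 7 (5.22%), against 16.2%. The median SD within a group was 0.236 for the *VEGFA-LNC* clones and 0.203 for the *VEGFC-LNC* clones, where all tested genes had 0.287 and 0.250. In controls it was 0.0761 and 0.0857 for the members and 0.0651 and 0.0640 for all genes. For comparison, the 220 tested *ZNF* genes of other chromosomes had a range of at least 1 in 43.6%. The widest ranges were those of *ZNF788P* (4.76), *ZNF714* (3.61), *ZNF613* (2.78), *ZNF114* (2.59), *ZNF554* (2.46), *ZNF331* (2.29), *ZNF296* (2.02), *ZNF83* (1.90), *ZNF493* (1.83) and *ZNF792* (1.81).

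**Figure D1:**
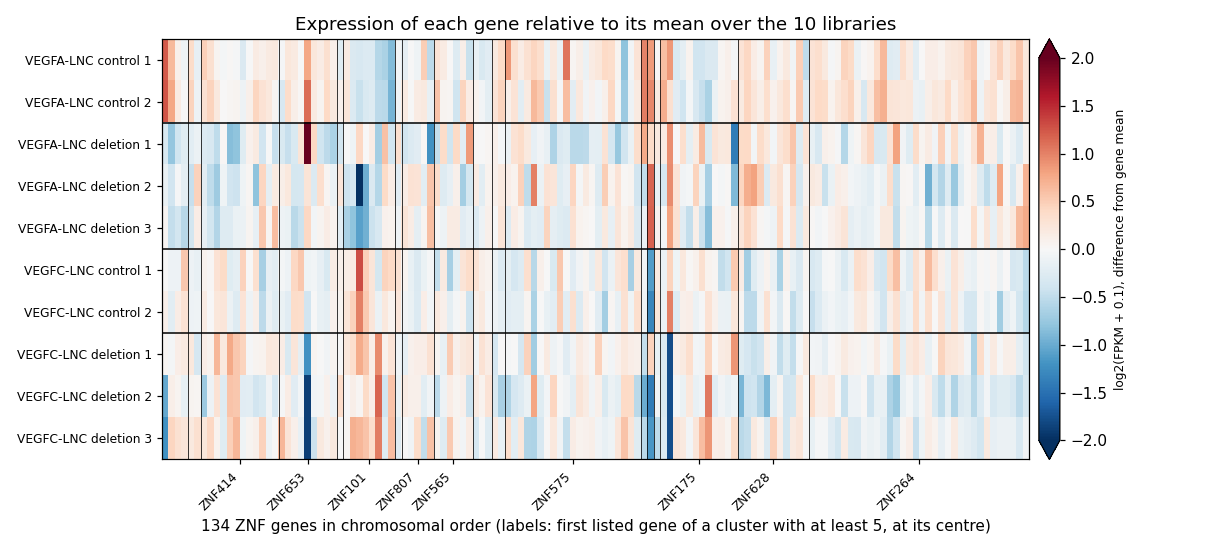
Heat map of log2(FPKM + 0.1) of the 134 genes, shown as the difference from the mean of the gene over the 10 libraries (colour, cut at 2 either way). Genes run in chromosomal order along the x axis with thin lines between clusters, and libraries are the rows. Most columns are pale, and single dark columns such as *ZNF788P* and *ZNF613* (lowest in the *VEGFC-LNC* clones) stand out.

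Upon *VEGFA-LNC* deletion 5 *ZNF* genes of chromosome 19 were differentially expressed (DEGs, with an FDR under 0.05 by limma and a fold change of at least 1.5), and all 5 fell. They were *ZNF175*, *ZNF222*, *ZNF317*, *ZNF555* and *ZNF557*, and they lie in 5 different clusters on both arms. The share, 3.73% of 134, compares with 2.74% of all tested genes, of which 2.01% fell and 0.733% rose. The median log2 fold change was −0.14 over the members and −0.06 over all tested genes, and 87 members had lower and 47 higher values. In the other 738 tested genes of chromosome 19 the median was −0.17, and 30 (4.07%) were DEGs, 25 lower and 5 higher. All 3 clones lay below both controls in 49 members and above both in 12, where 23.7% and 15.3% of all tested genes did so. Of the other 738 genes of the chromosome, 242 lay below both and 75 above both. As these are bulk libraries, fewer cells that express a gene and less RNA per cell cannot be told apart.

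*ZNF555* changed the most among these. Its controls had 1.44 and 1.57 FPKM and the clones 0.472, 0.654 and 0.606, so the groups did not overlap. The mean went from 1.504 ± 0.0884 (SD, n = 2) to 0.577 ± 0.0943 (SD, n = 3), a log2 fold change of −1.25 (SE 0.22, limma FDR 0.0271). *ZNF222* had 3.08 and 2.24 FPKM in the controls and 1.19, 1.25 and 1.15 in the clones, with a log2 fold change of −1.07 (SE 0.21, FDR 0.0363). *ZNF317* had 10.95 and 11.97 against 7.04, 6.13 and 6.78 FPKM, a log2 fold change of −0.78 (SE 0.17, FDR 0.0467). Here again each clone was below either control, with the clones close together. *ZNF557* had 3.35 and 3.55 against 2.20, 1.83 and 1.96 FPKM (log2 fold change −0.76, SE 0.15, FDR 0.0391). *ZNF175* had 18.7 and 20.3 against 13.8, 9.67 and 12.02 FPKM (−0.73, SE 0.15, FDR 0.0433).

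The calls rested on few libraries. None of the 5 remained when either control of either set or *VEGFA-LNC* deletion clone 3 was left out, 1 was left without clone 2, 3 without *VEGFC-LNC* deletion clone 3, and 16 were called without *VEGFA-LNC* deletion clone 1. Against all 4 controls none was called, nor with the replicate number as a block (FDRs of 0.0517 to 0.0848). The shares of all tested genes called in these alternatives are not given here. In *VEGFC-LNC* controls *ZNF175* had 11.3 and 11.3 FPKM, *ZNF222* 1.41 and 1.21, and *ZNF555* 0.814 and 0.745, that is, values nearer to the *VEGFA-LNC* clones than to their controls. *ZNF317* had 8.91 and 8.87 FPKM there and *ZNF557* 2.378 and 2.385, which lie between the *VEGFA-LNC* clones and their controls.

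Other members with large values did not pass the test. *ZNF554*, next to *ZNF555*, had 0.873 and 0.888 FPKM in the controls and 0.237, 0.279 and 0.327 in the clones. Its log2 fold change of −1.37 was the largest in size of all members, with an FDR of 0.0851. *ZNF296* followed with −0.96 (FDR 0.174), *ZNF331* with −0.86 (FDR 0.348) and *ZNF583* with −0.78 (FDR 0.0816). In the other direction *ZNF675*, whose product inhibits TRAF6 signaling, had 1.36 and 1.45 FPKM in the controls and 3.30, 2.86 and 2.30 in the clones (0.94, FDR 0.058). *ZNF254* had 0.85 (FDR 0.0816). The controls and clones did not overlap in *ZNF554*, *ZNF296*, *ZNF583*, *ZNF675* or *ZNF254*, but they did in *ZNF331*. These were picked for large changes, and 39.0% of all tested genes and 45.5% of the members did not overlap either.

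Upon *VEGFC-LNC* deletion a single member was a DEG, *ZNF613*, which fell. This is 0.746% of 134, against 0.486% of all tested genes, of which 0.337% fell and 0.15% rose. The median log2 fold change was 0.02 over the members and −0.09 over all tested genes, with 75 members higher and 59 lower. All 3 clones were above both controls in 28 members and below both in 24. Among all tested genes, 17.2% were above and 30.6% below. The other genes of chromosome 19 had a median of 0.01 and the *ZNF* genes elsewhere −0.10. The summed level of the 10 A549 markers, mostly *KRT8* and *KRT18*, was 652 and 658 FPKM in the controls and between 198 and 366 in the clones. In the *VEGFA-LNC* set it was 573 and 581 FPKM in the controls and between 256 and 786 in the clones. Its part in the values of the members was not tested.

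*ZNF613* had no read in any of the 3 *VEGFC-LNC* clones. Its reads numbered 8 and 33 in the controls of that set, 21 and 17 in the *VEGFA-LNC* controls and 19, 24 and 20 in the *VEGFA-LNC* clones, which is 0.362 and 0.585, 0.518 and 0.323, and 0.548, 0.558 and 0.493 FPKM. Thus the gene was low but present in the other 7 libraries. A count of 0 allows up to 3 reads over the 47642387 reads of the 3 clones, or 0.063 cpm, while the controls had 1.22 cpm, so that the level was at least 19.3-fold lower (counting error only). The log2 fold change was −2.49 (SE 0.28, limma FDR 0.00904), a value that depends on the pseudocount, and the difference between the deletions was −2.80 (SE 0.39, FDR 0.0168). The call was lost without either *VEGFC-LNC* control, with a pseudocount of 1, with control pairs averaged as 1 sample, with only the groups compared and with the replicate number as a block (FDR 0.061). The call of the difference was lost with the block (FDR 0.0513), with control pairs averaged as 1 sample and without any one control of either set. The sign held in all alternatives that were run.

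The gene, listed as NM_001031721 on the plus strand of chr19:52430688-52449011 (hg19), encodes 12 fingers. Its second listed transcript also had 0 reads in the 3 clones. The neighbours were chosen after their values were seen. *ZNF649* and *ZNF577*, upstream of it, had no read in any of the 10 libraries. *ZNF350*, which encodes the BRCA1 partner ZBRK1 and is the next listed *ZNF* gene downstream, had 34 and 77 reads in the *VEGFC-LNC* controls and 92, 69 and 31 in the clones. *ZNF614* had 158 and 374 reads and then 366, 240 and 111. The absence of reads thus did not reach the *ZNF* genes on that side.

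The 250 bases before the start of *ZNF613* are shown because it is the member that lost its reads. Beside them are those of *ZNF493*, which was higher in the same clones, and of *ZNF788P*, which was low there too. They were read from hg19 and are given 5′ to 3′ on the plus strand, with CG dinucleotides in capitals. The windows are chr19:52430438-52430687 for *ZNF613*, chr19:21579671-21579920 for *ZNF493* and chr19:12202828-12203077 for *ZNF788P*.
ZNF613: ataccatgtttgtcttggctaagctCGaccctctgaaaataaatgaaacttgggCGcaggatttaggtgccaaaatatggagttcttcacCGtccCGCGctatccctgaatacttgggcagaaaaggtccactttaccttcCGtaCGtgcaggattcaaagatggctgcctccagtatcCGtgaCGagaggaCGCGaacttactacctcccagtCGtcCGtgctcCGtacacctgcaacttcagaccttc
ZNF493: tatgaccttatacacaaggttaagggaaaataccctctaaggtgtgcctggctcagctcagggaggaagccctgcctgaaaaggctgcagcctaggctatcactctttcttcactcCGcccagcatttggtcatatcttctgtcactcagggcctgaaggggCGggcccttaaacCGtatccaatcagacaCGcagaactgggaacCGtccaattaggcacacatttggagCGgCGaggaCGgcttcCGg
ZNF788P: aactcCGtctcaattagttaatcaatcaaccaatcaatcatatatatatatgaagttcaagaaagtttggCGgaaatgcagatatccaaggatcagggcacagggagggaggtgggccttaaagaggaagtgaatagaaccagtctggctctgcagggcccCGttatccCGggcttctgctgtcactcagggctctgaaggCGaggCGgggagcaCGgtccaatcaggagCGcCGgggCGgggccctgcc
These windows hold 14, 9 and 10 CpGs and have a GC content of 50.4%, 54.0% and 53.6%. All are below the median of 18 CpGs of all tested genes, and *ZNF613* is close to the 14.5 of the members. At least 1 CG dinucleotide was found in 98.4% of the windows of all tested genes, so its presence is common, and methylation was not measured.

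*ZNF493* was the 1 member that passed the filter through a single group, the *VEGFC-LNC* clones, so that it had to be higher there, and its values are a description with no test. It had 2 and 3 reads in the *VEGFA-LNC* controls, 1, 2 and 4 in their clones and 2 and 8 in the *VEGFC-LNC* controls, but 28, 28 and 9 in the *VEGFC-LNC* clones. In FPKM the last were 0.252, 0.306 and 0.270, above the 0.067 or less of every other library. *ZNF788P*, a pseudogene by its symbol, had 9 and 17 reads in the *VEGFC-LNC* controls and 5, 0 and 0 in the clones. Its level in the *VEGFA-LNC* set was set by clone 1, with 149 reads, where the other libraries of the set had 35, 60, 24 and 26. The *VEGFC-LNC* clones were the lowest 3 of the 10 libraries, and the log2 fold change was −1.43 (SE 0.70, FDR 0.303). In *ZNF331* it was *VEGFA-LNC* clone 1 that stood low, with 1 read, where the other clones had 5 and 16 and its controls 14 and 25. These 4 genes were the members with less than 0.1 cpm in at least 1 library and at least 1 cpm in another (2.99% of the members), as were 2.53% of all tested genes.

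Among the other members with large values upon *VEGFC-LNC* deletion, *ZNF177* had 0.468 and 0.441 FPKM in the controls and 0.833, 0.841 and 0.922 in the clones, a log2 fold change of 0.80 (FDR 0.158). The readthrough transcript *ZNF559-ZNF177*, which shares its exons, had 0.79 (FDR 0.161), and the reads of both cannot be told apart. *ZNF566* had 0.82 (FDR 0.201). Lower values were found for *ZNF554* (−0.78, FDR 0.287), *ZNF530* (−0.71, FDR 0.415), *ZNF416* (−0.69, FDR 0.201) and *ZNF714* (−0.68, FDR 0.568). In *ZNF177*, its readthrough, *ZNF566*, *ZNF416* and *ZNF714* the clones did not overlap with the controls. These were picked for large changes, and 47.8% of all tested genes and 38.8% of the members did not overlap either.

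More members were DEGs between the control sets than upon either deletion. Of them 13 were DEGs between the *VEGFC-LNC* and the *VEGFA-LNC* controls, 3 of them higher and 10 lower in the *VEGFC-LNC* controls. That is 9.70%, and among all tested genes 12.7% were DEGs, with 2.93% higher and 9.74% lower. The median log2 fold change was −0.15, against −0.11 over all tested genes. The summed level of the 6 fibroblast and mural markers, mostly *ACTA2*, was 20.2 and 20.5 FPKM in the *VEGFA-LNC* controls and 0.88 and 1.12 in the others, and its part was not tested. *ZNF112* had 0.758 and 0.802 FPKM in the *VEGFA-LNC* controls and 1.79 and 1.76 in the *VEGFC-LNC* controls (log2 fold change 1.09, SE 0.23, limma FDR 0.0194). *ZNF254* (1.13, FDR 0.0225) and *ZNF675* (0.91, FDR 0.0381) were the others that were higher. In all of these the *VEGFA-LNC* clones too were above their controls, at 1.05, 1.43 and 1.47 FPKM for *ZNF112*.

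Of those that were lower, *ZNF114* had the largest difference. It had 0.791 and 0.860 FPKM in the *VEGFA-LNC* controls and 0.128 and 0.10 in the *VEGFC-LNC* controls (log2 fold change −2.11, SE 0.57, FDR 0.0441). Its 3 *VEGFA-LNC* clones had 0.544, 1.01 and 1.02 and the *VEGFC-LNC* clones 0.577, 0.087 and 0.120, so clone 1 of the latter alone was at the level of the other set. *ZNF773* (−1.06, FDR 0.0131), *ZNF579* (−1.02, FDR 0.00947), *ZNF222* (−0.96, FDR 0.0311), *ZNF555* (−0.87, FDR 0.0482), *ZNF175* (−0.78, FDR 0.0222), *ZNF226* (−0.77, FDR 0.0347), *ZNF419* (−0.71, FDR 0.0412) and *ZNF329* (−0.65, FDR 0.0384) were lower too. The last of the 10 was *ZNF274* (−0.85, FDR 0.0266), whose product is known to bind the 3′ ends of *ZNF* genes and to bring SETDB1 there. It had 3.93 and 4.22 FPKM in one control set and 2.39 and 2.06 in the other. *ZNF579* kept to the sets, with 6.43 FPKM or more in all 5 *VEGFA-LNC* libraries and 3.84 or less in all 5 of the *VEGFC-LNC* set. None of the 13 was called when any of the 4 controls was left out, and 25 were called without *VEGFA-LNC* deletion clone 1. With the libraries scaled by median of ratios, which moved the median of all tested genes by 0.104, it was 7, with 3 higher and 4 lower. The matching shares of all tested genes are not given here.

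*ZNF175*, *ZNF222* and *ZNF555* were thus DEGs both upon *VEGFA-LNC* deletion and between the control sets. These comparisons share the 2 *VEGFA-LNC* controls. The test of the difference between the deletions called *ZNF613* only among the members (0.746%), against 1.45% of all tested genes. For *ZNF555*, with log2 fold changes of −1.25 upon *VEGFA-LNC* deletion and 0.33 upon *VEGFC-LNC* deletion, the difference was 1.58 (SE 0.31, FDR 0.0508). For *ZNF675*, with 0.94 and −0.51, it was −1.45 (SE 0.30, FDR 0.0593), and for *ZNF557*, with −0.76 and 0.25, it was 1.01 (SE 0.22, FDR 0.0612).

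Among the 9 clusters with at least 5 members, the largest median shift in any of these comparisons was between the control sets. In the cluster from *ZNF101* to *ZNF254*, 7 of 8 members had higher values in the *VEGFC-LNC* controls, with a median log2 fold change of 0.69, and 2 of them were DEGs. *ZNF431*, which represses the Hedgehog receptor gene *PTCH1*, had 1.49 and 1.44 FPKM in the *VEGFA-LNC* controls and 2.56 and 2.65 in the *VEGFC-LNC* controls (FDR 0.131). *ZNF714* had 1.72 and 1.57 against 5.52 and 4.48 FPKM, and in the *VEGFA-LNC* clones 2.93, 0.360 and 0.976 (FDR 0.168). This cluster also differed among the *VEGFA-LNC* clones, whose medians relative to their controls were 0.36, −0.05 and −0.34. Only 1 other tested gene lies within its span, with a log2 fold change of 0.34 between the control sets.

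Upon *VEGFA-LNC* deletion 27 of 34 members of the cluster from *ZNF264* to *ZNF446* had lower values, with a median of −0.29, and none was a DEG. The 8 other tested genes within its span had a median of −0.41. The clones gave −0.18, −0.38 and −0.24. In the cluster from *ZNF414* to *ZNF846* 10 of 12 were lower (median −0.36), while the cluster from *ZNF175* to *ZNF331* and that from *ZNF628* to *ZNF835* had medians of 0.17 and 0.13. The other tested genes within these spans had medians of 0.04, −0.01 and −0.26, in that order. At the end of the short arm, the 4 members that passed from *ZNF554* to *ZNF77* were all lower, with a median of −0.82. Upon *VEGFC-LNC* deletion the medians of the 9 larger clusters lay between −0.07 and 0.18. These shifts were not tested by cluster.

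**Figure D2:**
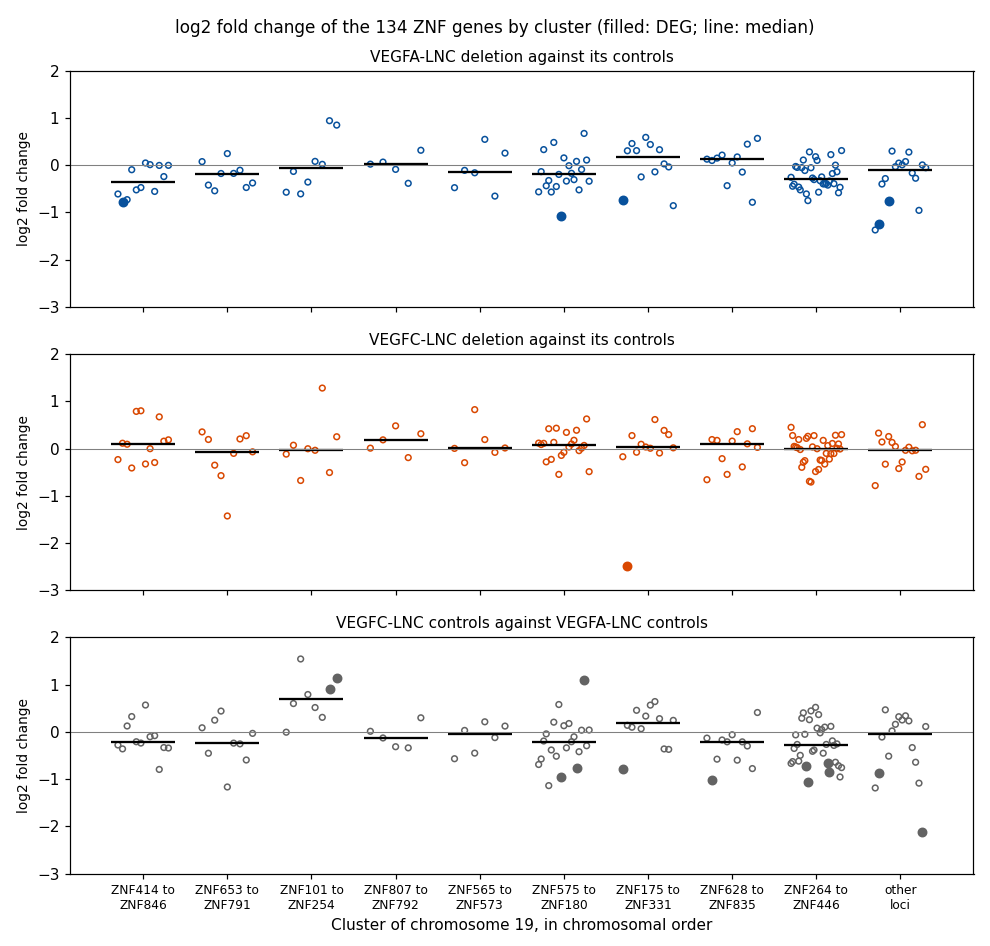
log2 fold change (y axis) of each of the 134 genes by cluster (x axis, in chromosomal order, loci outside the 9 larger clusters last), for each deletion against its controls and for the control sets. Filled points are DEGs and lines are medians. The cluster from *ZNF101* to *ZNF254* has a median of 0.69 between the control sets, and *ZNF613* at −2.49 is the lowest point of the *VEGFC-LNC* panel.

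The machinery that KRAB proteins work with was measured in the same libraries. Of 31 corepressor and heterochromatin genes all were tested, and none was a DEG upon either deletion. Among all tested genes 2.74% were DEGs upon *VEGFA-LNC* deletion and 0.486% upon *VEGFC-LNC* deletion. Upon *VEGFC-LNC* deletion 28 had lower and 3 had higher values, with a median log2 fold change of −0.32, while the *ZNF* genes had a median of 0.02. All tested genes had a median of −0.09 there, with 7894 lower and 5477 higher. Upon *VEGFA-LNC* deletion 22 were higher and 9 lower (median 0.13), and of all tested genes 5907 were higher and 7464 lower (median −0.06). *TRIM28* had 153 ± 2.59 FPKM (SD, n = 2) in the *VEGFC-LNC* controls and 101 ± 19.1 (SD, n = 3) in the clones (log2 fold change −0.62, limma FDR 0.277). *CBX5*, which encodes HP1α, had 40.2 ± 0.969 and 19.2 ± 4.69 (−1.09, FDR 0.0994), and *SETDB1* had 5.42 ± 0.531 and 4.16 ± 0.955 (−0.40, FDR 0.328). In the *VEGFA-LNC* controls and clones the means were 105 and 121 FPKM for *TRIM28*, 27.1 and 22.2 for *CBX5* and 4.77 and 4.88 for *SETDB1*. The *VEGFC-LNC* controls were above the *VEGFA-LNC* controls in 29 of the 31 and below them in 2 (median log2 fold change 0.46). Of all tested genes 5598 were higher and 7773 lower there (median −0.11). Between the control sets 4 of the 31 were DEGs that rose, *CHD3* (0.84, FDR 0.00775), *CBX1* (0.68, FDR 0.0299), *DNMT3A* (0.60, FDR 0.0484) and *FAM208A* (0.60, FDR 0.0264). They encode a chromatin remodeler, HP1β, a DNA methyltransferase and the HUSH subunit TASOR, in that order. Among all tested genes 2.93% were DEGs that rose in that comparison.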

How the data were processed

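RNA-Seq of rRNA-depleted total RNA was measured in 10 libraries of EA.hy926. The authors deposited FPKM values per RefSeq transcript on hg19, in the layout that HOMER writes. Per the labels, reads were trimmed with Trim Galore (version 0.4.4), aligned with STAR (version 2.5.4b) and counted with featureCounts, and how the FPKM values were made from these steps is not given in the sources used here. Groups were taken from the labels. The 42 rows without a symbol (0.03% of the summed FPKM × length) were left out.

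Rows with FPKM × length/1000 of at least 1 in at least 2 libraries were kept, and for each symbol that with the highest mean. log2(FPKM + 0.1) was fitted for all 13371 genes in 4 groups with limma (version 3.58.1, lmFit and eBayes with a trend) in R (version 4.3.3), with Benjamini-Hochberg FDRs over all tested genes. Fold changes are on the log2(FPKM + 0.1) scale, whose pseudocount understates the change of low genes. The thresholds for a DEG were an FDR of 0.05 and a fold change of 1.5. In simulated data with 200 genes changed 8-fold and the same spread in every library, 198 were recovered, with 8 false calls. Smaller changes and the wider spread between clones were not simulated. Reads per library were recovered from the step of FPKM × length in transcripts up to 400 bases, at which 99.8% to 100% of values came within 0.1 of a whole read. They measure counting error only.

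Coding sequences (GENCODE v44lift37) were translated, those of at least 100 residues were used, and fingers were matched as C, 2 to 4 residues, C, 12 residues, H, 3 to 5 residues, H. *ZNF274* gave no such sequence, and a planned pattern for the KRAB domain was not used. Of the members 19 overlap another symbol, 11 on the same strand and 9 on the opposite one.

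The members, the lists of partners and markers and the tests were chosen with earlier results of these data known. Members named in the text were DEGs in any comparison, the 10 with the largest absolute log2 fold change upon each deletion, the 8 highest and 3 lowest by mean, the 10 with the widest range, those near 0 cpm in a library and at 1 or above in another, and those at the edge of the filter. Members of the cluster from *ZNF101* to *ZNF254*, those with the most and fewest fingers and the neighbours of *ZNF613* were named after their values were seen. Alternatives were other pseudocounts, filters, scalings, sets of controls, a replicate block and leaving out each library. Figures were drawn with matplotlib (version 3.10.9) in Python (version 3.11.15) with numpy (version 2.4.6) and pandas (version 2.3.3).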

Additional observations from a re-analysis of the deposited data

Results flagged for a closer look

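*ZNF613* differed between the deletions by the test of the difference itself. Its log2 fold change was −2.49 upon *VEGFC-LNC* deletion and 0.31 upon *VEGFA-LNC* deletion, a difference of −2.80 (SE 0.39, limma FDR 0.0168), with 0 reads in 3 of 3 *VEGFC-LNC* clones and 17 to 24 reads in the 5 *VEGFA-LNC* libraries. The call was lost without any one of the 4 controls, with control pairs averaged as 1 sample and with the replicate number as a block (FDR 0.0513). Whether the clones share an ancestor that already lacked the reads was not tested.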

How the results depend on the processing

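Counts of member DEGs, 5, 1, 13 and 1 upon *VEGFA-LNC* deletion, upon *VEGFC-LNC* deletion, between the control sets and for the difference between deletions, moved with the estimate of the spread, and the cause was not tested. With each control pair averaged as 1 sample all were 0, and by limma 9, 2, 8 and 8 members then had an unadjusted p under 0.05. With only the groups compared they were 0, 0 and 32. With all 4 controls the *VEGFA-LNC* count was 0 (18 at an unadjusted p under 0.05). A pseudocount of 1 gave 0 upon *VEGFC-LNC* deletion and 3 for the difference, and 0.5 gave 2 for the difference. Without a filter they were 2 and 3. Median-of-ratios scaling gave 7 between the control sets (3 higher, 4 lower), 3 for the difference, and 1 higher and 4 lower upon *VEGFA-LNC* deletion. With the replicate block the counts were 0 (28 at an unadjusted p under 0.05), 0 (8), 9 and 0 (18). Same-numbered libraries correlated at 0.551, 0.408 and 0.219 between the clones of both deletions but between −0.056 and 0.046 where controls were involved, and *VEGFC-LNC* clone 3 correlated better with *VEGFA-LNC* clone 2 (0.261). The correlations are of deviations from group means, which mirror each other in 2 controls and were small there. Values near 0 thus do not settle whether clones and controls were paired. Between clones of different numbers the correlations ran from −0.538 (*VEGFA-LNC* clone 2 with *VEGFC-LNC* clone 1) to 0.261. What the numbers stand for is not in the labels and was not tested. Leaving out each library gave 0 to 16 upon *VEGFA-LNC* deletion, 0 to 5 upon *VEGFC-LNC* deletion, 0 to 25 between the control sets and 0 to 4 for the difference. The lowest came without a control (upon *VEGFA-LNC* deletion also without its clone 3) and the highest without *VEGFA-LNC* deletion clone 1. Shares of all tested genes under the alternatives are not given here, so these counts are not to be read as particular to the members. The members' median log2 fold change ran from −0.18 to −0.09, from −0.05 to 0.11, from −0.18 to −0.05 and from 0.11 to 0.25 over all alternatives. Of 684 values of named members under alternatives 511 kept direction and side of the threshold, 158 lost the call, 14 gained it and 1 changed sign (*ZNF714* upon *VEGFC-LNC* deletion against all 4 controls, 0.0947). A joining gap of 250 kb or 1000 kb gave 9 or 8 clusters with at least 5 members, and limits of 0.05 and 0.2 cpm gave 2 and 4 members near 0. These were 1.49% and 2.99% of the members, against 2.02% and 4.01% of all tested genes. Reads limited the members at the low end, such as *ZNF493* with 1 to 8 reads outside the *VEGFC-LNC* clones.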
